A study of Mus musculus with 24 samples.

Results

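The nuclear genes for the subunits of the mitochondrial respiratory chain and ATP synthase were followed across 8 mouse cell types. Members were all genes whose symbol begins with Nduf followed by a, b, c, s or v and a digit, with Uqcr, with Cox followed by a digit from 4 to 8 or with Atp5, together with Sdha, Sdhb, Sdhc and Sdhd. Only probesets that name 1 gene were used, and a gene with several such probesets was represented by the one with the highest mean over all arrays. This gave 80 of the 18820 genes measured. By the complex their proteins belong to, 33 were counted under complex I, 4 under complex II, 7 under complex III, 19 under complex IV and 17 under complex V. Ndufa4, named for complex I but since assigned to complex IV, and its paralog Ndufa4l2 were counted under complex IV. Genes were chosen by symbol alone, with earlier results of these data known. For the 22 members with several probesets, the measured mean decided which probeset was used.

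The respiratory chain passes electrons from NADH (complex I) and succinate (complex II) through complex III to oxygen at complex IV, and complex V, the ATP synthase, uses the resulting proton gradient to make ATP. Complexes I, III, IV and V combine subunits encoded in the nucleus with a few encoded in mitochondrial DNA, while complex II is encoded in the nucleus alone and also works in the citrate cycle. Macrophages and microglia change their use of respiration and glycolysis with their state, and several subunits of complex IV exist as a ubiquitous form and as a form typical of muscle, testis or low oxygen. The 13 subunits encoded in mitochondrial DNA were listed for comparison, and 0 of them had a single-gene probeset. Cox7c, Uqcrc2 and Ndufa13 were named only by probesets that also carry another symbol and were not analysed here.

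RNA from 8 cell types, 3 samples each, was hybridised to 24 Affymetrix Mouse Gene 1.0 ST arrays in a study of microglia grown from induced pluripotent stem cells. Stem cells (iPSC, labelled adult), microglia derived from stem cells (iPS-MG, also labelled adult), microglia of postnatal day 5 (neo-MG) and adult microglia (ad-MG) were C57BL/6NCr with the Cx3cr1gfp/+ genotype, in which gfp replaces 1 copy of the fractalkine receptor gene. C57BL/6NCr mice without it gave neural stem cells (NSC, embryonic day 15 to day 18) and, as adults, dendritic cells (DC) and macrophages of bone marrow (bm-Mac) or the peritoneum (p-Mac), so genotype and cell type cannot be told apart between microglia and the other myeloid cells. iPSC were cultured with leukemia inhibitory factor on growth-arrested embryonic fibroblasts. The protocol adds M-CSF, GM-CSF and IL-3, all at 20 ng/mL, for cells it calls gMG, a term left without definition, and keeps the remaining cells in DMEM/F12 medium with serum. Whether replicates are separate animals or cultures is not stated, so p-values here reflect the spread between samples alone, and that spread may be technical.

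Values are on a log2 scale, on which a difference of 1 is 2-fold. Array medians over all probesets ran from 7.96 to 8.21, and within groups Pearson's r across genes was 0.9952 to 0.9986. The spread of values over genes was narrower in p-Mac (SD 1.90 to 1.96) than in NSC (1.99 to 2.01) and the other groups (2.04 to 2.09). Pluripotency, neural progenitor, microglial and peritoneal macrophage markers were highest in the groups so labelled, but dendritic cell markers were highest in p-Mac. The log2 of the summed unlogged levels of 6 dendritic cell markers was 12.90 to 12.95 in DC, 13.62 to 13.85 in bm-Mac and 14.17 to 14.28 in p-Mac. Such a sum gives the brightest markers the most weight. The mean of their log2 levels was 9.65 in DC, 9.55 in bm-Mac and 10.39 in p-Mac. Of these 6, Flt3 averaged 7.07 in DC against 7.80 in bm-Mac, but with the higher mean in DC not every marker was lower there. With a lower sum but a higher mean in DC, the 6 markers did not run one way between DC and bm-Mac. The arrays are therefore called DC by label only.

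Subunit genes were lowest in both kinds of macrophage and highest in neural stem cells. The median log2 level of the 80 members was 11.69, 11.70 and 11.73 in the 3 NSC arrays, 11.59, 11.61 and 11.69 for iPS-MG, 11.49, 11.50 and 11.54 in neo-MG, and, for DC, 11.44, 11.46 and 11.48. It was 11.41, 11.42 and 11.45 in iPSC, 11.24, 11.25 and 11.35 in ad-MG, 10.61, 10.76 and 10.84 in bm-Mac, and 10.17, 10.19 and 10.31 in p-Mac. NSC and iPS-MG arrays touched at 11.69, DC and iPSC arrays overlapped, and all 6 macrophage arrays lay below the other 18. In such bulk RNA, fewer cells of a type and less RNA per cell cannot be told apart.

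Gene by gene, 64 of the 80 members (80%) had their lowest group mean in p-Mac, which was the lowest group for 13.2% of all genes. Another 6 were lowest in bm-Mac. NSC held the highest mean of 32 members (40%, against 17% of all genes) and iPSC of 26 (32.5%, against 21%). Only 5 members were highest in p-Mac, the group in which 30.5% of all genes were highest: Cox4i2, Cox7b2, Cox8b, Cox8c and Ndufa4l2, all of them tissue or low-oxygen forms with means from 5.46 to 8.52 there. A moderated F test over the 8 groups (limma with Benjamini-Hochberg adjustment over all genes, adjusted p under 0.05) called 79 of the 80 members, where 96% of all genes were called, and the exception was the testis form Cox7b2.

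**Figure D1:**
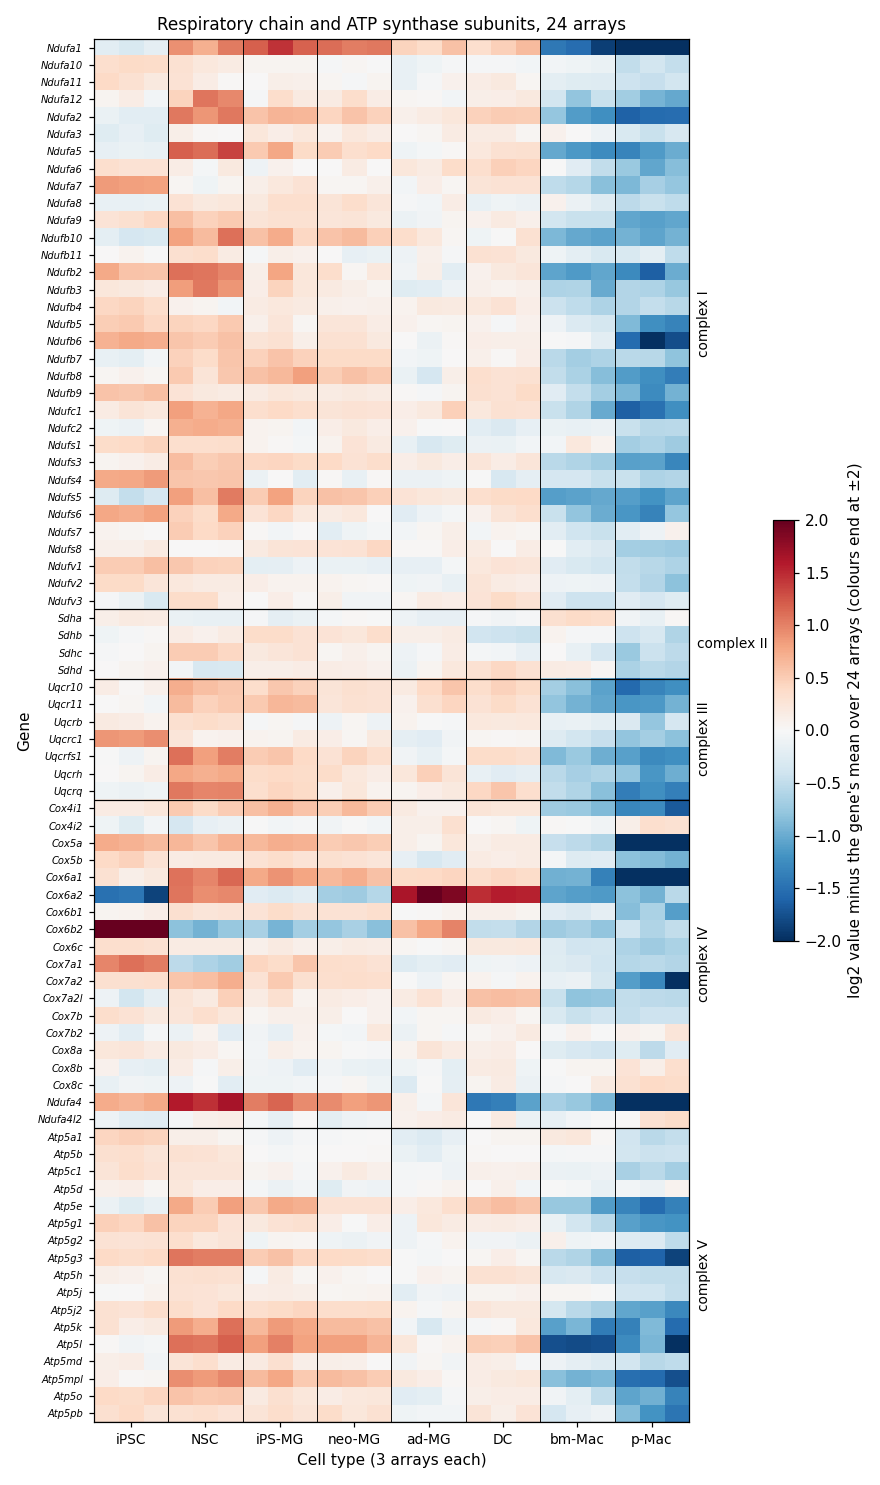
Log2 value of each of the 80 members in 24 arrays, minus the mean of that gene over all arrays, with genes in rows ordered by complex and cell types in columns (3 arrays each). Blue cells (lower values) gather in the bm-Mac and p-Mac columns in complexes I, III, IV and V, and the rows of Cox6a2 and Cox6b2 depart from the rest.

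The range of the 8 group means differed widely among members. Its median was 1.42 log2 units, 51 members spanned 1 unit or more and 20 spanned 2 or more. By the probeset used, the 6 widest were Cox6b2 (4.13), Ndufa4 (3.81), Ndufa1 (3.61), Cox6a1 (3.51), Cox6a2 (3.44) and Cox5a (2.95). Of these, Ndufa1 is the only one counted under complex I. A dimmer second probeset of Cox6a1 had group means from 8.13 to 9.46 only. The 3 narrowest were Cox7b2 (0.25), Atp5d (0.29), the delta subunit of ATP synthase, and Cox8b (0.37). Within the succinate dehydrogenase genes of complex II the range was 0.49 for Sdha, 0.79 for Sdhb, 1.04 for Sdhc and 0.93 for Sdhd.

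Bone marrow macrophages had lower levels of most subunits than neonatal microglia. In all, 61 of 80 members were lower in bm-Mac and 2 were higher (limma with Benjamini-Hochberg adjusted p under 0.05), where 19% of all genes were lower and 22.3% higher (41.3% in either direction). By 2-fold or more, 19 members were lower and 0 higher, against 2.1% and 3.12% of all genes. The arrays of both groups did not overlap for 68 members, against 54.4% of all genes. The median difference of the members was -0.47, and that of all genes 0.03. Of genes with a mean of 10 or more, 31.9% were lower, against 80.6% of the 67 members at that level.

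Ndufa1, a small membrane-arm subunit that complex I needs for its assembly, differed most. Its log2 levels were 11.76, 11.66 and 11.69 in neo-MG and 9.21, 9.11 and 8.76 in bm-Mac. In iPS-MG they were 11.84, 12.08 and 11.81, in NSC 11.55, 11.35 and 11.68, and in iPSC 10.42, 10.33 and 10.46. The adult microglia gave 11.08, 11.01 and 11.22, the DC 10.98, 11.12 and 11.27, and the p-Mac 8.30, 8.13 and 8.47. From high to low the order was thus iPS-MG, neo-MG and NSC, then ad-MG and DC, then iPSC, with the macrophages last and p-Mac below bm-Mac in every array. The iPS-MG, neo-MG and NSC arrays were close (a lowest iPS-MG of 11.81 against a highest NSC of 11.68), the neo-MG and NSC arrays overlapped, and so did ad-MG and DC. Ndufa1 was 6.4-fold lower in bm-Mac than in neo-MG (log2 difference -2.68 ± 0.11 SE, n = 3 each, limma adjusted p = 6.94e-17).

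**Figure D2:**
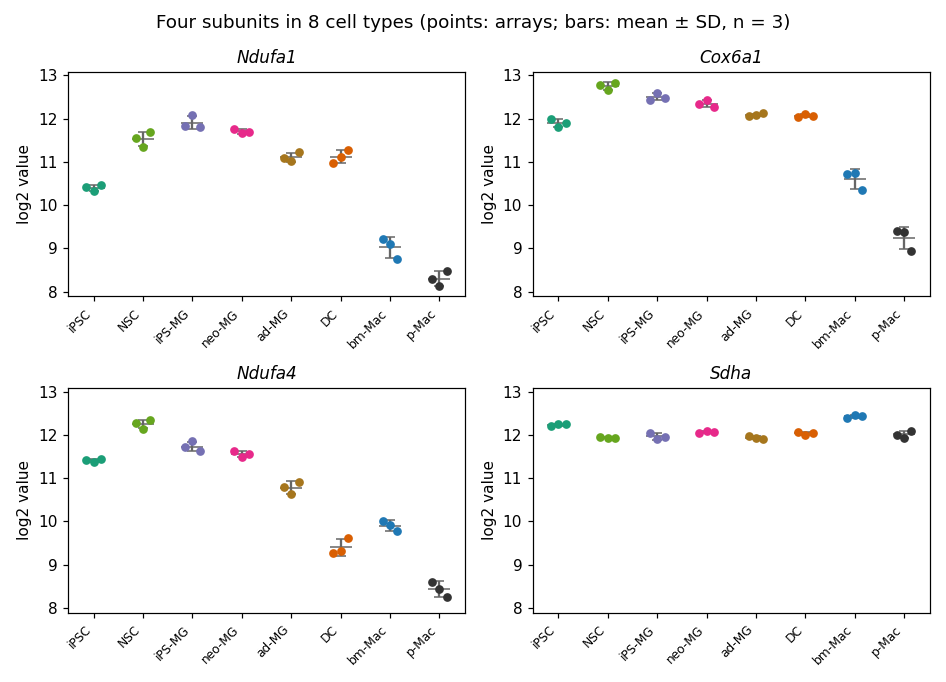
Log2 levels of Ndufa1 (complex I), Cox6a1 and Ndufa4 (complex IV) and Sdha (complex II) in 8 cell types, with points for arrays and bars for mean ± SD (n = 3). Ndufa1 and Cox6a1 are lowest in both macrophage groups, Ndufa4 is also low in DC, and Sdha is highest in bm-Mac.

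Across complex I, 28 of 33 members were lower in bm-Mac than in neo-MG and 0 higher, with a median difference of -0.62. In a split made after the values were seen, 4 of 6 measured core subunits were lower (median -0.20) and 24 of 27 accessory subunits (median -0.65). In p-Mac minus bm-Mac the medians stood the other way, at -0.53 for the core subunits (5 of 6 lower) and -0.35 for the accessory subunits (17 of 27 lower). Among core subunits, Ndufs3 was lower in bm-Mac than in neo-MG by the widest margin (-0.96), while Ndufs1 differed by -0.10 ± 0.065, which did not pass. Of the accessory subunits, Ndufs5, Ndufa5 and Ndufb10 were lower, with log2 differences of -1.61, -1.56 and -1.55. The difference between the core and accessory groups itself was not tested.

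Complex II had 2 of 4 members lower in bm-Mac than in neo-MG and 1 higher (median -0.11). Its catalytic flavoprotein gene Sdha read 12.40, 12.46 and 12.43 in bm-Mac and 12.04, 12.10 and 12.07 in neo-MG. Every bm-Mac array was above every array of the other 7 groups, the highest of which was 12.25 in iPSC. The difference from neo-MG was 0.36 ± 0.054 (1.28-fold, limma adjusted p = 4.81e-06). The iron-sulfur subunit gene Sdhb was lower in bm-Mac (-0.27 ± 0.063) and Sdhc, a membrane anchor, also (-0.22), a call that was lost without neo-MG replicate 2 or 3 or bm-Mac replicate 2 or 3 (adjusted p = 0.0553 to 0.222, limma). The other anchor gene, Sdhd, differed by 0.00 and did not pass.

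In complex III, 6 of 7 members were lower in bm-Mac (median -0.84), among them the Rieske iron-sulfur protein gene Uqcrfs1 (-1.22) and the small subunit genes Uqcr10 (-1.16) and Uqcr11 (-1.20). Of 19 members of complex IV, 13 were lower and 0 higher (median -0.46). Cox6a1, the ubiquitous form of subunit 6A, read 12.34, 12.42 and 12.27 in neo-MG and 10.73, 10.75 and 10.34 in bm-Mac. The groups did not overlap, and the difference was -1.73 ± 0.10 (3.33-fold, limma adjusted p = 1.8e-13). A dimmer second probeset of Cox6a1 had means of 9.22 in neo-MG, 8.56 in bm-Mac and 8.13 in p-Mac, in the same order with smaller gaps. Cox4i1, the ubiquitous form of subunit 4, was lower too (-1.33).

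ATP synthase had 12 of 17 members lower and 1 higher (median -0.43). Atp5l and Atp5k encode the small membrane subunits g and e, which sit where ATP synthase dimers meet. Atp5l read 11.83, 11.84 and 11.70 in neo-MG and 9.26, 9.23 and 9.26 in bm-Mac, 5.82-fold lower without overlap (-2.54 ± 0.22, limma adjusted p = 5.27e-10). Its 6 probesets gave group means within 9.06 to 9.27 in bm-Mac and 11.47 to 11.79 in neo-MG. Atp5k was 3.36-fold lower (-1.75 ± 0.13, limma adjusted p = 1.92e-11). The catalytic beta subunit gene Atp5b, by contrast, differed by -0.04 ± 0.050 and did not pass, and the alpha subunit gene Atp5a1 was higher by 0.16 (limma adjusted p = 0.0339), a call lost when any neo-MG array, bm-Mac replicate 1 or bm-Mac replicate 2 was left out (adjusted p = 0.0631 to 0.164).

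**Figure D3:**
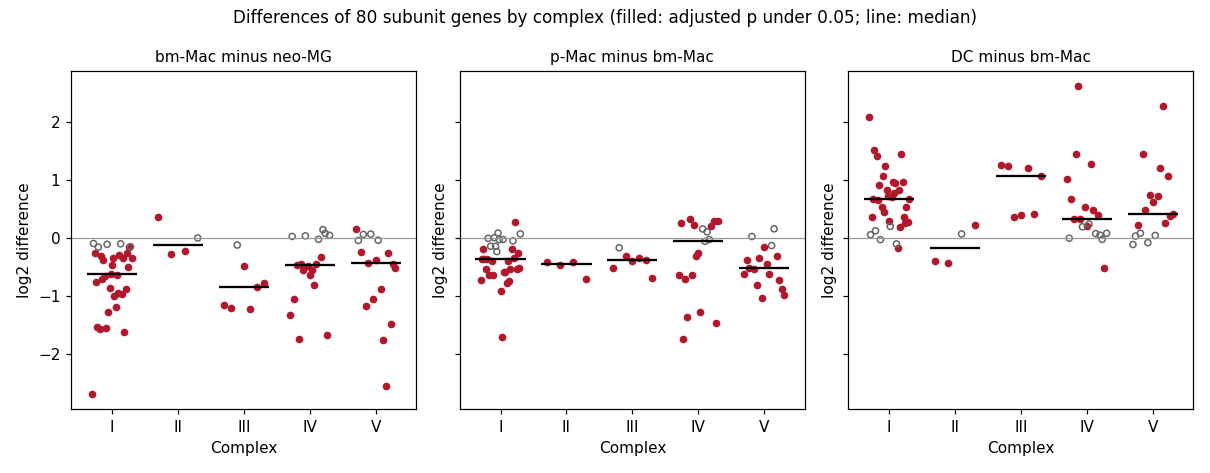
Log2 differences of the 80 members by complex for bm-Mac minus neo-MG, p-Mac minus bm-Mac and DC minus bm-Mac, where filled points passed an adjusted p of 0.05 (limma) and lines are medians. Most points of complexes I, III and V lie below 0 in the first and second panels and above 0 in the third, and the 3 comparisons share the bm-Mac arrays.

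Peritoneal macrophages were lower still. Against bm-Mac, 55 members were lower and 7 higher in p-Mac (limma with Benjamini-Hochberg adjusted p under 0.05), where 27.6% of all genes were lower and 36.6% higher. By 2-fold or more, 6 were lower and 0 higher (4.44% and 1.73% of all genes). Arrays did not overlap for 58 members (65.6% of all genes), and the median difference was -0.37 for members and 0.10 for all genes. The narrower spread of the p-Mac arrays moved with the level of a gene: the 4734 genes with a mean of 10 or more had a median difference of -0.20 with 2586 lower and 896 higher, and the genes below 10 a median of 0.15. The 67 members with a mean of 10 or more had a median of -0.44, with 53 lower and 2 higher. Quantile normalization, which gives all arrays the same spread, left 49 members lower and 8 higher with a median of -0.24.

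Cox5a and Ndufb6 differed most between the macrophages. Cox5a, a matrix-side subunit of complex IV, read 10.40, 10.33 and 10.26 in bm-Mac and 8.78, 8.67 and 8.34 in p-Mac, against 10.91 to 11.61 over the other 6 groups. All p-Mac arrays lay below all others, and the gene was 3.33-fold lower than in bm-Mac (-1.73 ± 0.078, limma adjusted p = 7.15e-16). Ndufb6, a membrane-arm accessory subunit, read 11.59, 11.58 and 11.38 in bm-Mac and 10.06, 9.55 and 9.83 in p-Mac (-1.71 ± 0.087, 3.26-fold, limma adjusted p = 9.07e-15). The p-Mac arrays lay below all others, and bm-Mac overlapped ad-MG (11.48 to 11.62).

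Ndufa4 read 10.02, 9.92 and 9.77 in bm-Mac and 8.61, 8.45 and 8.25 in p-Mac (-1.47 ± 0.097, limma adjusted p = 1.51e-12). It read 11.63, 11.50 and 11.56 in neo-MG and 12.27, 12.14 and 12.34 in NSC, so that NSC was highest and p-Mac lowest without overlap. Cox6a1 was lower in p-Mac than in bm-Mac (-1.36 ± 0.10), with arrays of 9.41, 9.38 and 8.94. Ndufa1 was lower as well (-0.73 ± 0.11, limma adjusted p = 2.49e-06), and Atp5l, at 9.76, 10.10 and 8.38, varied too much between p-Mac arrays for its difference of 0.16 ± 0.22 to pass.

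Members lower in p-Mac were found in every complex. Complex I had 22 of 33 members lower and 1 higher (median -0.35), complex III 6 of 7 lower (-0.37) and complex V 14 of 17 lower (-0.51). All 4 complex II genes were lower here, with differences of -0.42 for Sdha, -0.46 for Sdhb, -0.40 for Sdhc and -0.71 for Sdhd. Complex IV was split, with 9 of 19 lower and 6 higher (median -0.05). The 7 higher members were Cox6a2, Ndufa4l2, Cox8c, Cox4i2, Cox6b2, Cox8b and Ndufs7, with differences from 0.21 to 0.33. All but Cox6a2 and Ndufs7 had a mean under 10. At that level 38.5% of the 13 members were higher in p-Mac, near the 42.5% of all genes. The call for Cox6a2 was lost without p-Mac replicate 3 (limma adjusted p = 0.0807). Those for Cox6b2 and Cox8b were lost in 4 and 3 of the single-array omissions (adjusted p up to 0.124 and 0.128), and with each array centred on its median only 2 members were higher.

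In DC the subunits stood above bm-Mac. Of the 80 members, 58 were higher in DC and 4 lower (limma with Benjamini-Hochberg adjusted p under 0.05), against 22% and 24.5% of all genes. By 2-fold or more, 18 were higher and 0 lower (3.41% and 4.67% of all genes), and 68 had no overlap of arrays (55.3% of all genes). The median difference was 0.44 for members and -0.02 for all genes. Of genes with a mean of 10 or more, 35.7% were higher, against 76.1% of the members at that level. Complex III had 7 of 7 members higher (median 1.08), complex I 27 of 33 (0.67), complex V 12 of 17 (0.42) and complex IV 11 of 19 (0.33). Ndufa1 was 4.28-fold higher (2.10 ± 0.11, limma adjusted p = 5.99e-15), Atp5l 4.84-fold (2.27 ± 0.22, adjusted p = 2.6e-09) and the complex I accessory subunit Ndufa2 2.88-fold (1.53 ± 0.081, adjusted p = 1.44e-14).

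The 4 members lower in DC than in bm-Mac were Ndufa4, Sdhb, Sdha and Ndufs1. Ndufa4 read 9.26, 9.32 and 9.62 in DC, below every bm-Mac array and above only p-Mac (-0.51 ± 0.097, limma adjusted p = 8.29e-05). Sdhb (-0.42 ± 0.063) and Sdha (-0.39 ± 0.054) were lower without overlap. The call for Ndufs1 (-0.18) was lost without DC replicate 1 or 2 or bm-Mac replicate 2 or 3 (adjusted p = 0.0539 to 0.215, limma). Cox7a2l, counted under complex IV, read 11.52, 11.56 and 11.53 in DC, above all other arrays, the highest of which was 11.42 in NSC.

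Centring each array on its median moved the median of all genes by -0.10 for bm-Mac minus neo-MG, by -0.10 for p-Mac minus bm-Mac and by 0.12 for DC minus bm-Mac. Centred, the members' medians were -0.58, -0.48 and 0.56, and their counts of lower or higher members were 69, 60 and 69. The direction of the members was the same with and without centring in these 3 comparisons.

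Microglia derived from stem cells and neonatal microglia differed little in these genes, with no single call. Between iPS-MG and neo-MG, 0 of 80 members passed (limma with Benjamini-Hochberg adjusted p under 0.05), where 0.213% of all genes were higher and 0% lower, and 0.0266% were higher by 2-fold or more. At an unadjusted p under 0.05 there were 10 members and 1225 genes (12.5% and 6.51%), and 2 members were higher with a trended, robust variance or with only these 6 arrays in the fit. Arrays did not overlap for 26 members, against 17% of all genes. Differences ran from -0.14 to 0.42 with a median of 0.05, against -0.01 for all genes. They were above 0 for 60 of the 80 members and for 8132 of the 18820 genes, and all 3 iPS-MG array medians of the members lay above all 3 of neo-MG. The largest was Cox6a2, with iPS-MG arrays of 10.00 to 10.06 and neo-MG arrays of 9.56 to 9.71 (0.42 ± 0.10, adjusted p = 0.117), followed by Atp5e (0.38, adjusted p = 0.109) and Uqcr11 (0.32, adjusted p = 0.134). Missing the threshold does not show that levels were equal, and the median SE of a member's difference was 0.076.

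Adult microglia had somewhat lower levels than neonatal microglia. In ad-MG 36 members were lower and 5 higher (limma with Benjamini-Hochberg adjusted p under 0.05), where 24.4% of all genes were lower and 19.9% higher (44.3% in either direction), and 51 had no overlap (54.3% of all genes). At 2-fold or more, 2 were higher and 0 lower (4.43% and 1.28% of all genes). The median difference was -0.15 for members and -0.06 for all genes. Of genes with a mean of 10 or more, 37.3% were lower in ad-MG, against 44.8% of the 67 members at that level. Complex V had 11 of 17 members lower, complex I 14 of 33, complex IV 8 of 19, complex III 2 of 7 and complex II 1 of 4. The lower members without overlap were led by Ndufa4 (-0.79 ± 0.097, limma adjusted p = 1.81e-07), Atp5k (-0.77 ± 0.13), Atp5l (-0.67 ± 0.22) and the complex I accessory subunit Ndufb8 (-0.64 ± 0.099). The call for Atp5l was lost with quantile normalization and with trended, robust variances (limma adjusted p = 0.0522 to 0.0541).

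Both members higher by 2-fold in ad-MG were tissue forms. Cox6a2 was 5.68-fold and Cox6b2 2.91-fold higher, as described with the isoforms. The other 3 higher members differed little and not in every setting: Ndufa4l2 (0.25, lost without neo-MG replicate 1 or ad-MG replicate 3), Cox4i2 (0.23, lost without ad-MG replicate 3) and Atp5d (0.16, lost in 4 of the single-array omissions). The count of higher members was then 3 without neo-MG replicate 1 and 2 without ad-MG replicate 3. Markers of other cells moved with this comparison. The log2 of the summed unlogged levels of the 8 fibroblast markers was 14.60 to 14.74 in ad-MG and 11.60 to 11.65 in neo-MG. For the 8 endothelial and mural markers it was 12.62 to 12.78 in ad-MG and 10.87 to 10.99 in neo-MG. Their part in the members' differences was not tested.

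Against iPSC, the derived microglia showed differences in both directions, in shares of members (35% higher and 32.5% lower) near those of all genes. In iPS-MG 28 members were higher and 26 lower (limma with Benjamini-Hochberg adjusted p under 0.05), where 30.4% of all genes were higher and 34.1% lower, and 61 had no overlap (69.9% of all genes). With each array centred on its median, 35 were higher and 19 lower, which moved the share of called members that were higher from 51.9% to 64.8%. With quantile normalization 25 were higher and 30 lower (45.5% higher), and the median of the members turned to -0.02. The median difference as deposited was 0.07 for members and 0.02 for all genes. At least 2-fold, 2 were higher and 1 lower (10.4% and 11.8% of all genes). Fibroblast markers, as the log2 of their summed unlogged levels, were 12.27 to 12.32 in iPSC, which grew on fibroblasts, and 11.66 to 11.68 in iPS-MG. Endothelial and mural markers were 11.85 to 11.87 in iPSC and 10.88 to 10.94 in iPS-MG. Their part in the members' differences was not tested.

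The members higher in iPS-MG were led by Ndufa1 (1.51 ± 0.11, 2.84-fold, limma adjusted p = 1.59e-12), Cox6a2 (1.36 ± 0.10), the complex I accessory subunit Ndufs5 (0.94 ± 0.089) and Atp5l (0.91 ± 0.22). Lower were Cox6b2, Ndufs4 (-0.90 ± 0.074), Uqcrc1 (-0.79 ± 0.065), a core protein of complex III, and Ndufv1 (-0.70 ± 0.056), the subunit that oxidises NADH. Ndufs4, a peripheral-arm subunit whose loss causes Leigh syndrome, read 12.84, 12.85 and 12.94 in iPSC and 11.96, 12.09 and 11.87 in iPS-MG. In NSC it read 12.64, 12.62 and 12.64, between iPSC and every myeloid array, the highest of which was 12.11.

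Neural stem cells stood above iPSC for more members than below. In NSC 43 were higher and 14 lower (limma with Benjamini-Hochberg adjusted p under 0.05), where 32.2% of all genes were higher and 33.8% lower, with no overlap for 64 (68.8% of all genes) and a median of 0.19 against 0.03 for all genes. At least 2-fold, 9 were higher and 2 lower (7.25% and 9.97% of all genes). Higher were Cox6a2 (2.58 ± 0.10), Ndufa5 (1.37 ± 0.087), Ndufs5 (1.18 ± 0.089) and Ndufa2 (1.17 ± 0.081). Lower were Cox6b2, Cox7a1 (-1.64 ± 0.060), the complex I accessory subunit Ndufa7 (-0.83 ± 0.076) and Uqcrc1 (-0.75 ± 0.065). This comparison shares the iPSC arrays with the previous one. Fibroblast markers, as the log2 of their summed unlogged levels, were 10.74 to 10.86 in NSC, below iPSC, and their part in these differences was not tested.

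Set against the mean of the 6 myeloid groups, the mean of both stem cell groups was higher for 67 members and lower for 6 (limma with Benjamini-Hochberg adjusted p under 0.05), against 36.3% and 39.4% of all genes (75.7% in either direction). At 2-fold or more 3 were higher and 0 lower (9% and 9.67% of all genes), and arrays did not overlap for 11 members (19.9% of all genes). The median difference was 0.38 for members and -0.03 for all genes. Leaving p-Mac out of the myeloid mean gave 60 higher and 5 lower (median 0.23), and leaving out p-Mac and bm-Mac gave 47 and 10 (median 0.14, with 37.8% and 32.6% of all genes). Both alternatives were added after the data were seen. Among members without overlap, Ndufs4 (0.90 ± 0.043, limma adjusted p = 2.25e-16), Ndufb6 (0.85 ± 0.050), Ndufv1 (0.69 ± 0.033) and Ndufb5 (0.63 ± 0.049) were furthest above the myeloid cells. A far dimmer second probeset of Ndufb5 did not repeat this, with means of 7.17 in iPSC and 7.25 in NSC. Its means in the myeloid groups were 6.95 to 7.62, and its r with the probeset used was -0.658.

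The forms of complex IV subunits that are typical of one tissue departed from these patterns. Cox6a2, the form of subunit 6A found in heart and skeletal muscle, read 11.91, 12.32 and 12.14 in ad-MG, 11.75, 11.84 and 11.82 for DC and 11.34, 11.21 and 11.23 for NSC. Values were 10.05, 10.00 and 10.06 for iPS-MG, 9.59, 9.56 and 9.71 for neo-MG, 9.46, 9.33 and 9.74 in p-Mac, 9.22, 9.18 and 9.14 in bm-Mac and 8.79, 8.83 and 8.42 in iPSC. The ad-MG and DC arrays were highest and the iPSC arrays lowest, and the neo-MG and p-Mac arrays overlapped. It was higher in ad-MG than in neo-MG by 2.51 ± 0.10 (limma adjusted p = 7.14e-17) and in DC than in bm-Mac by 2.62 ± 0.10 (6.16-fold, limma adjusted p = 2.13e-17). The log2 of the summed unlogged levels of 5 measured muscle markers was 10.50 to 10.62 in ad-MG and 10.61 to 10.67 in neo-MG. It was 10.55 to 10.67 for DC and 10.57 to 10.58 for bm-Mac. Cox6a1, the ubiquitous form, was 12.07, 12.08 and 12.12 in ad-MG and 12.04, 12.11 and 12.05 in DC, below neo-MG and above bm-Mac.

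Cox6b2, the testis form of subunit 6B, was high in iPSC at 11.41, 11.45 and 11.55. It read 8.77, 8.96 and 9.18 in ad-MG and between 7.24 and 7.79 in the 18 arrays of the other 6 groups. The iPSC arrays were apart from all others and ad-MG lay between. In iPS-MG it was 16.5-fold lower than in iPSC (-4.04 ± 0.089, limma adjusted p = 2.62e-23) and in NSC 17.5-fold lower (-4.13 ± 0.089, limma adjusted p = 2.7e-23). The ubiquitous form Cox6b1 read 12.62, 12.63 and 12.69 in iPSC and 12.83, 12.93 and 12.85 in iPS-MG, and its lowest arrays were those of p-Mac, at 11.71, 11.93 and 11.46.

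**Figure D4:**
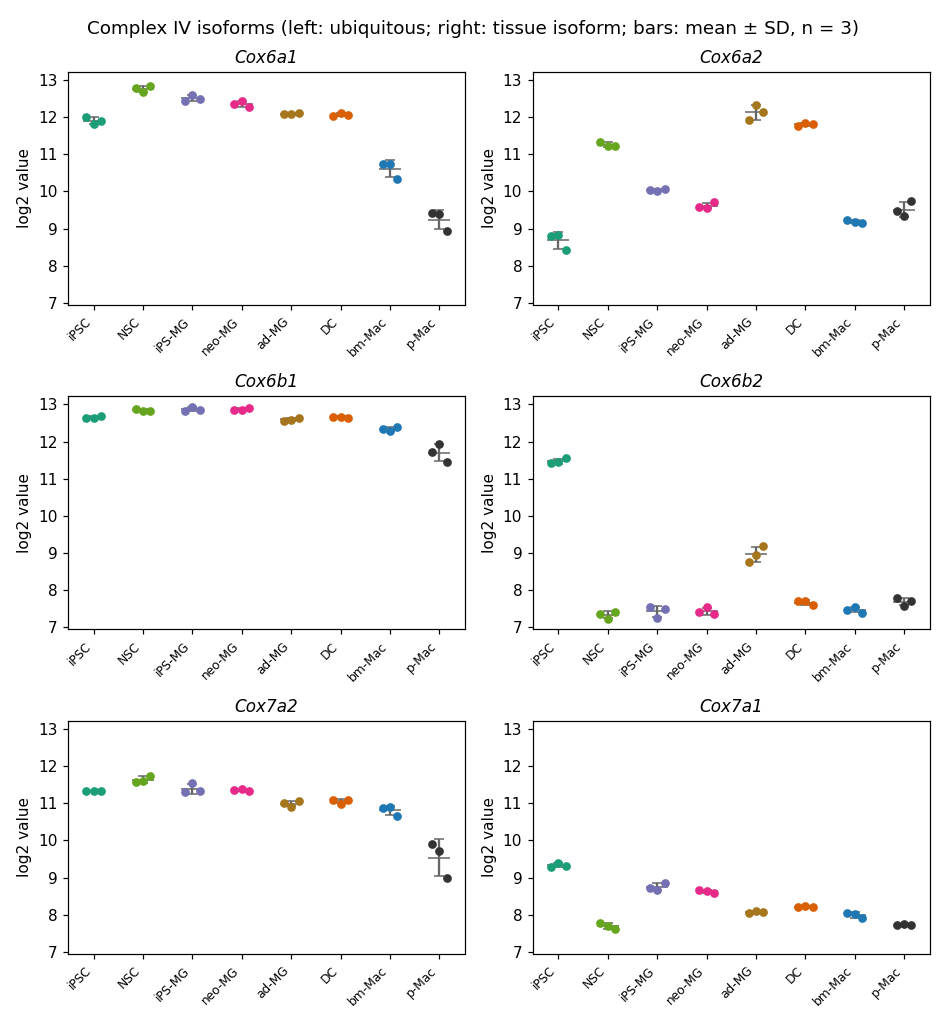
Log2 levels of 3 pairs of complex IV forms in 8 cell types, the ubiquitous form on the left and the tissue form on the right, with points for arrays and bars for mean ± SD (n = 3). Levels of different genes are not comparable, but the cell types that are high differ within each pair: Cox6a2 is highest in ad-MG and DC and Cox6b2 in iPSC, whereas Cox6a1, Cox6b1 and Cox7a2 are all lowest in p-Mac.

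Cox7a1, the muscle form of subunit 7A, was likewise highest in iPSC (9.28, 9.40 and 9.32), followed by iPS-MG (8.73, 8.67 and 8.86) and neo-MG (8.66, 8.64 and 8.59). Its NSC arrays (7.78, 7.69 and 7.61) overlapped those of p-Mac at the bottom. NSC were 3.12-fold below iPSC (limma adjusted p = 2.29e-18). The remaining tissue or low-oxygen forms had narrow ranges of group means: Cox4i2 spanned 0.45, Ndufa4l2 0.41, Cox8c 0.51, Cox8b 0.37 and Cox7b2 0.25. The genes Atp5g1, Atp5g2 and Atp5g3, whose mature products are the same c subunit of the ATP synthase rotor, spanned 1.64, 0.63 and 2.73, each with its lowest mean in p-Mac.

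Promoter windows from 250 bases before to 50 after the transcription start, taken from RefSeq on GRCm38.p6, were found for 66 of the 80 members (71 windows). Factors known for nuclear genes of respiration include NRF1, the ETS protein GABP, YY1 and SP1, and the letters of their motifs were searched on both strands. The NRF1 motif (GCGCA, any base, then GCGC) was in 18 of 71 member windows (25.4%) and in 7.05% of 17856 windows of all measured protein-coding genes. The ETS motif CCGGAAG was in 23.9% against 12.2%, the YY1 motif ATGGCNGC in 15.5% against 7.65% and the SP1 motif GGGCGG in 39.4% against 49.9%. Matches of different motifs overlapped each other in 1 member window. A match describes letters only, and the absence of a match says only that these letters are not in the window.

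Shown are the windows of Ndufa1 and Cox6a1, both low in macrophages, and of the ubiquitous and testis forms Cox6b1 and Cox6b2, which part in iPSC. Each runs 5′ to 3′ on the gene's strand, the minus strand for all 4, at GRCm38.p6 positions chrX:37191189-37191488, chr5:115348909-115349208, chr7:30626065-30626364 and chr7:4753045-4753344. Capitals mark NRF1, ETS or YY1 matches, and GGGCGG is not marked.
Ndufa1: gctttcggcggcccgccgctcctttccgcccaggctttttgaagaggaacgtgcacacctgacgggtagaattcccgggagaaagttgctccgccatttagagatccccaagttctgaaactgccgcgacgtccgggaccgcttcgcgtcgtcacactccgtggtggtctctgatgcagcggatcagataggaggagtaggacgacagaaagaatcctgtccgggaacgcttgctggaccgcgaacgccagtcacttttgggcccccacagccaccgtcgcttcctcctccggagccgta
Cox6a1: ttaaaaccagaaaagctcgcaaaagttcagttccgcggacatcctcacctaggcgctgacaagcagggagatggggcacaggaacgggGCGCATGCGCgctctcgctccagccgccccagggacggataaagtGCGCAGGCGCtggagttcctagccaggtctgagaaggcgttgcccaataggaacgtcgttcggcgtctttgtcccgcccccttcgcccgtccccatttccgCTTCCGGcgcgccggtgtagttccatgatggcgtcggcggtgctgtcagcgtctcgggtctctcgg
Cox6b1: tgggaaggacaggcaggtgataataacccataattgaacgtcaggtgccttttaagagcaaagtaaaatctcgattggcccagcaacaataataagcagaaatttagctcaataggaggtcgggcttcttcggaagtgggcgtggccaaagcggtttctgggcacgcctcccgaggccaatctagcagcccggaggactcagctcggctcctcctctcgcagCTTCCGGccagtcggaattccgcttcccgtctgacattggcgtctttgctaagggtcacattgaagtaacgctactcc
Cox6b2: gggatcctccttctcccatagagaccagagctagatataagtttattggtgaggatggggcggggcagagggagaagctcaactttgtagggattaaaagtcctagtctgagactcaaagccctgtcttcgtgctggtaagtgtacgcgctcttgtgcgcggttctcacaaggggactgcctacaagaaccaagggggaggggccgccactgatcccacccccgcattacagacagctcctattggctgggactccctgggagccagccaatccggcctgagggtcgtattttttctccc
Cox6a1 held 2 NRF1 matches and an ETS match, Cox6b1 held an ETS match, and the windows of Ndufa1 and Cox6b2 held none of these 3 motifs.

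Genes that work with the subunits were counted in fixed lists, chosen like the members with earlier results known. Of 45 assembly factors, 27 were lower and 8 higher in bm-Mac than in neo-MG, and 31 were higher and 5 lower in DC than in bm-Mac (limma adjusted p under 0.05). All-gene shares for comparison were 19% lower and 22.3% higher in bm-Mac, 24.5% and 22% in DC, and 27.6% and 36.6% in p-Mac. Of genes with a mean of 10 or more, 54.6% were lower and 18.9% higher in p-Mac than in bm-Mac. Cox17, the copper chaperone of complex IV, was lower in bm-Mac (-2.37) and higher in DC (2.40). Higd1a, a small inner membrane protein induced by low oxygen, had differences of -1.89 and 2.45. The comparisons share the bm-Mac arrays. Of 17 citrate cycle and pyruvate dehydrogenase genes, 8 were lower and 2 higher in bm-Mac than in neo-MG, and 15 lower and 1 higher in p-Mac than in bm-Mac, led by Idh3a (-1.22) and Fh1 (-0.86). Of 15 membrane carriers, 12 were lower and 1 higher in p-Mac, with the adenine nucleotide carrier gene Slc25a4 lower (-1.14). Of 17 electron carriers and their partners, 5 were lower (29.4%) and 4 higher (23.5%) in bm-Mac, near the shares of all genes.

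Among 15 regulators of mitochondrial gene expression, 5 were lower and 2 higher in bm-Mac than in neo-MG, and 5 lower and 2 higher in p-Mac than in bm-Mac. That is 33.3% lower in both, against 19% and 27.6% of all genes, and 13.3% higher in both, against 22.3% and 36.6%. Tfam, which packages and transcribes mitochondrial DNA, was lower in bm-Mac than in neo-MG (-0.49) and in p-Mac than in bm-Mac (-0.89). None of the 45, 17, 17, 15 and 15 genes in these lists passed between iPS-MG and neo-MG. Ribosomal protein genes, counted after the values were seen, moved with the members in macrophages: 55 of 68 cytosolic and 57 of 74 mitochondrial ribosomal proteins were lower in bm-Mac than in neo-MG (medians -0.50 and -0.38), and 62 and 48 were higher in DC than in bm-Mac. Whether a property shared by such genes bears on the members' differences was not tested.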

How the data were processed

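The authors deposited 1 log2 value per probeset and array (35556 probesets, 24 arrays), made with RMA and Partek per the submitters' processing notes. That the logarithm has base 2 was judged from the range of values (3.14 to 14.43), and the chip definition is not given in the sources used here. Gene names are those of GEO's platform table and may be outdated: 21218 probesets had 1 symbol and were used, 1881 had several and 12457 none. Whether probes of a member also match its pseudogenes was not tested.

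Groups came from the labels. A limma 3.58.1 model (R 4.3.3) was fitted once to all 24 arrays and tested on simulated data. Benjamini-Hochberg adjustment ran over 18820 genes. A gene was called at an adjusted p under 0.05, and calls of at least 2-fold are a second rule. Values after ± are SE for differences. No detection calls were used, so no level is called absent, and the number of arrays limits the precision.

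Named in each comparison were members among the 4 highest and 4 lowest called without overlap, Ndufa1, the isoform pairs, the Sdh genes, the 6 widest and 3 narrowest ranges, and extremes of each list. Further examples were chosen after their values were seen, and members and lists with earlier results of these data known. Alternatives were centring, quantile normalization, probeset averaging, leaving out dim genes, trended robust variances, fits to the compared groups, a replicate block and leaving out each array.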

Additional observations from a re-analysis of the deposited data

How the results depend on the processing

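No named member changed direction with a call in any alternative tried. Between iPS-MG and iPSC the balance of counts did turn with quantile normalization. There 25 members were higher and 30 lower, in place of 28 and 26, and the members' median was -0.02 in place of 0.07. Counts of members kept within 1.5 times of those reported in 267 recomputations, and 13 moved further. The exceptions were these. Between iPS-MG and neo-MG, 2 members were higher with trended, robust variances and 2 with only the compared groups in the fit, in place of 0. With each array centred on its median, 2 members were higher in ad-MG than in neo-MG in place of 5, 1 in bm-Mac than in neo-MG in place of 2, and 2 in p-Mac than in bm-Mac in place of 7. Stem cells had 10 lower members in place of 6 when p-Mac and bm-Mac were left out of the myeloid mean, an alternative added after seeing the data. Leaving out 1 array at a time gave 2 to 6 members higher in ad-MG than in neo-MG. It gave 1 to 2 higher in bm-Mac than in neo-MG. The cause of these changes was not tested. For named members, 3369 recomputed differences kept their side of the threshold, 109 lost the call and 40 gained it.

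Samples that share a replicate number showed little joint deviation (mean r 0.02 over 84 pairs, -0.26 to 0.25). Pairs with different numbers had a mean r of -0.01, and 10 of 24 arrays were closest to their own number. With so few arrays a group, this check cannot exclude a weak or partial pairing of samples by number. With the replicate number as a block, 61 members were lower and 2 higher in bm-Mac than in neo-MG, 55 and 7 in p-Mac than in bm-Mac, 4 and 58 in DC than in bm-Mac, 35 and 4 in ad-MG than in neo-MG, 25 and 28 in iPS-MG than in iPSC, 14 and 43 in NSC than in iPSC, and 6 and 68 in stem cells than in myeloid cells, and 0 passed between iPS-MG and neo-MG.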

Other observations

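Among the listed genes, Ppargc1a, a coactivator of genes for mitochondrial respiration, had log2 levels of 11.96, 11.81 and 11.85 in NSC and of 6.01 to 7.02 in the 21 other arrays. Against iPSC the difference was 5.79 ± 0.074 SE (limma, Benjamini-Hochberg adjusted p = 1.56e-27, 3 arrays a group). Cyct, the testis form of the electron carrier cytochrome c, read 7.49, 7.46 and 7.38 in iPSC and 4.57 to 4.85 elsewhere, so that the iPSC arrays stood apart for it as they did for the testis form Cox6b2. The Cyct difference from iPSC was -2.69 in iPS-MG and -2.74 in NSC. The somatic gene Cycs was highest in NSC (13.33, 13.45 and 13.33).

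The mitochondrial carrier genes Slc25a20, which imports acylcarnitines, and Slc25a13, which exports aspartate, were lower in NSC than in iPSC, with differences of -3.47 and -3.50. Mpc1, a subunit of the mitochondrial pyruvate carrier, was higher in iPS-MG than in iPSC by 2.21 ± 0.08, and Tspo, an outer membrane protein used to image microglia, by 2.53 ± 0.10.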
